A study of Mus musculus with 5 samples.

Results

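The genes described here are 35 genes of the red cell lineage that code for haem enzymes, globins, membrane and skeleton proteins, surface antigens, channels and a few regulators. They were taken by name, with earlier results of these data known. Each was read from the probe set whose platform annotation gave its symbol alone and that was brightest on average over the arrays. Of the 35 genes, 34 had such a probe set, out of 18193 genes measured in all; beta-globin Hbb-bt had none of its own. Expression was compared on 5 Affymetrix arrays, 2 of cells from MSI2-inducible mice and 3 of cells from control mice with rtTA, the transactivator that doxycycline switches on. All mice were C57BL/6, and bone marrow stem and progenitor cells were sorted by flow cytometry. The gate is uncertain, because the samples are labelled as cells that carry both Sca1 and Kit, while the series' own description has Sca1 absent. No label states what promoter drives the transgene, how old the animals were, whether or how long the transgene was induced, or whether MSI2-inducible mice also carried rtTA. Nor is it stated that each array came from its own mouse, so the p-values speak only of the spread among these 5 arrays, possibly a technical one.

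Red cells form when progenitors that carry the erythropoietin receptor are kept alive by erythropoietin and then fill with haemoglobin. Haem is made in a fixed series of enzyme steps that start and end in the mitochondrion, and it joins alpha- and beta-globin chains. The membrane is held by a spectrin and actin skeleton, tied to band 3 and to blood group proteins through ankyrin, protein 4.2 and adducin. In marrow, stem and early progenitor cells carry low levels of many of these transcripts, and levels climb as cells commit to the lineage.

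Levels are given as log2 intensity, and a difference is the MSI2-inducible mean minus the control mean on the log2 scale. The median log2 intensity of all probe sets was 5.57, and levels below it lie near the floor of the array, where differences are poorly measured. Median intensities of the arrays lay between 46.4 and 48.3, and precision is limited by there being 5 arrays. The arrays were not alike: MSI2-inducible replicate 1 alone held the highest value of 28.3% of all genes, against 12.8% to 24.4% in the other 4 arrays. The progenitor receptor Kit had levels of 8.80 and 9.50 in MSI2-inducible cells, with controls between 9.19 and 9.66, and the cytokine receptor Flt3 at 10.32 and 10.41, against 10.00 to 10.40. Both were well above the median probe set, while Ly6a, the Sca1 gene, was not analysed here. Msi2 itself, read from the brightest of its 8 probe sets, lay at 11.00 and 11.43, against 11.67, 11.76 and 11.74 in control arrays. Its other probe sets are not given here, and the labels do not say whether any of the 8 reads the transgene.

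The erythroid genes lay higher in MSI2-inducible cells as a group, mostly through replicate 1, but no single gene passed the test. Because the list was chosen with earlier results of these data known, the shares set against all genes are descriptive only. Of the 34 measured genes, 27 had a higher mean in MSI2-inducible cells and 7 a lower one (79.4% higher, against 50.4% of all genes). Their median difference was 0.41, against 0.0019 over all genes, and differences ran from -0.40 for Alas1 to 2.01 for Epb42. At a limma adjusted p of 0.05 over all genes, 0 of the 34 passed, while 0.022% of all genes passed (0.0165% higher and 0.0055% lower), and the lowest adjusted p among the 34 was 0.482, for Alad. An unadjusted limma p under 0.05 was reached by 8 genes that were higher (23.5%, against 2.87% of all genes) and by 0 that were lower (2.77% of all genes). Differences of at least 1 were found in 8 genes that were higher (23.5%, against 1.45% of all genes) and in 0 that were lower (1.28% of all genes).

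In 10 genes both MSI2-inducible arrays lay above all 3 control arrays (29.4%, against 9.27% of all genes). These were Epor, Alad, Uros, Fech, Ank1, Rhd, Aqp1, Car1, Hemgn and Samd14. The arrays of 1 gene, Aqp9, did not overlap in the other direction (9.39% of all genes). The plot of differences with their intervals shows that the widest belong to the band 3 gene Slc4a1 and to Epb42, both of which have overlapping arrays. Without MSI2-inducible replicate 1 the median difference was 0.16, and without replicate 2 it was 0.75. In bulk RNA, more cells of a type and more RNA per cell cannot be told apart.

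**Figure D1:**
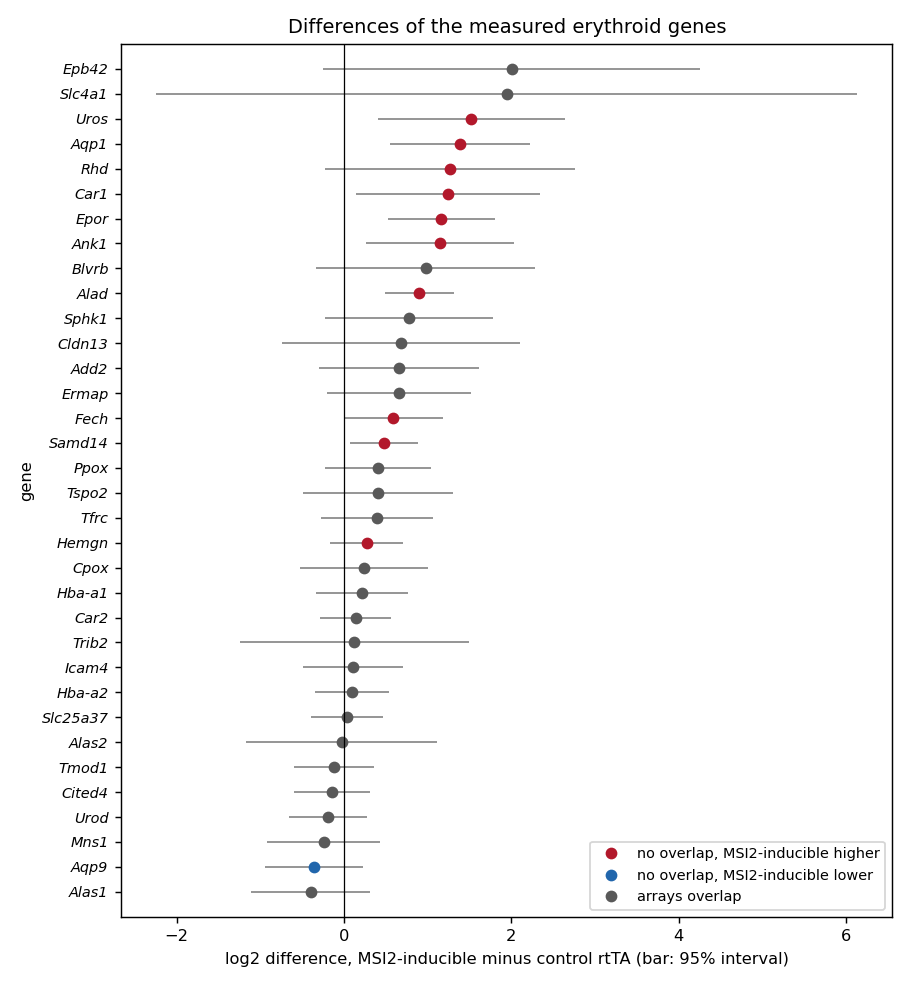
Log2 differences (x axis, MSI2-inducible minus control rtTA) of the 34 measured genes (y axis), with bars for the 95% interval from limma. Red points mark the 10 genes whose MSI2-inducible arrays both lie above all 3 control arrays, the blue point marks Aqp9, which lies below, and grey points mark genes whose arrays overlap; the interval of Slc4a1 runs from -2.24 to 6.13.

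Most of the shift lay in MSI2-inducible replicate 1. That array held the highest value of 22 of the 34 genes (64.7%, against 28.3% of all genes), MSI2-inducible replicate 2 of 5, and control replicates 1, 2 and 3 of 6, 0 and 1. Replicate 1 lay above every control array in 23 genes (67.6%, against 31.9% of all genes), and replicate 2 in 14 (41.2%, against 21.1% of all genes). Measured from the control mean, the median gene lay at 0.75 in MSI2-inducible replicate 1 and 0.16 in replicate 2, against 0.14, -0.06 and -0.03 in control replicates 1, 2 and 3. Replicate 2 was hardly above control replicate 1, and with control replicate 2 left out they lay at 0.060 and 0.075. In 10 genes replicate 1 exceeded replicate 2 by at least 1 (29.4%, against 4.16% of all genes). At the other end, control replicate 2 held the lowest value of 15 genes (44.1%, against 20.5% of all genes).

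**Figure D2:**
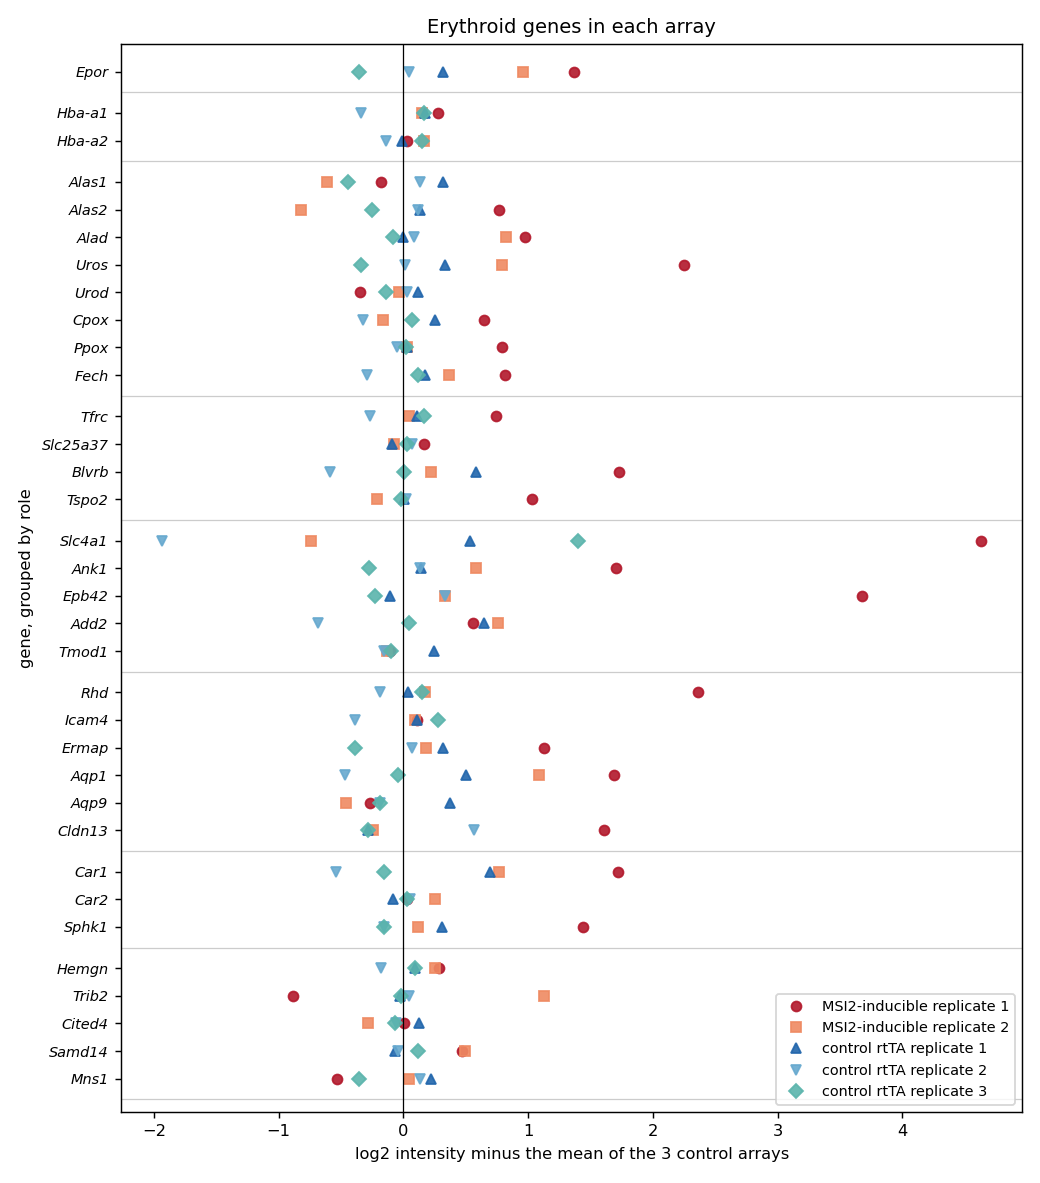
Each row is a gene, grouped by role, and each point is 1 array, placed by its log2 intensity minus the mean of the 3 control arrays (x axis). Red circles, MSI2-inducible replicate 1, lie farthest right in 22 of 34 rows and farthest of all for Slc4a1; orange squares, MSI2-inducible replicate 2, lie apart from the controls in Epor, Alad, Uros and Aqp1, among others.

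Epor, the receptor through which erythropoietin keeps early erythroid cells alive, was higher in both MSI2-inducible arrays. It lay at 8.30 and 7.89 in MSI2-inducible replicates 1 and 2, against 7.24, 6.97 and 6.57 in control replicates 1, 2 and 3. The arrays did not overlap, and the lower MSI2-inducible array was above the highest control. Means were 8.09 ± 0.29 (SD, n = 2) in MSI2-inducible and 6.93 ± 0.34 (SD, n = 3) in control cells, a difference of 1.16 (SE 0.26, 95% interval 0.52 to 1.80), with a limma adjusted p of 0.616. With any 1 array left out the difference stayed between 0.96 and 1.37. The stretch before its start is shown because it holds the letters that GATA factors, which drive erythroid genes, are known to bind. It is RefSeq sequence of build GRCm38.p6, chr9:21963577-21963826 on the minus strand, 250 bases that end at the base before the start. Capitals mark the match, which begins 54 bases before the start.
Epor: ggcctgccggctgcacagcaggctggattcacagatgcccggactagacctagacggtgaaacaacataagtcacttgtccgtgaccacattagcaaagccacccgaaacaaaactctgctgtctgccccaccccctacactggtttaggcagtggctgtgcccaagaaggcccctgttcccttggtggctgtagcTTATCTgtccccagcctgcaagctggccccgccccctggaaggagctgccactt

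The same search was run over all promoters of that length. The letters AGATAA or TGATAA, on either strand, were found within 250 bases before a start in 13 of the 27 genes with an entry (48.1%), against 18.8% of 27025 genes. A gene with several annotated starts counted if any of its windows held a match. The 13 genes were Epor, both alpha-globin genes, Alas2, Uros, Cpox, Epb42, Rhd, Icam4, Ermap, Aqp9, Hemgn and Sphk1. They include genes with arrays that did not overlap, such as Epor and Uros, and genes with hardly any difference, such as Icam4. Alad and Aqp1, also without overlap, had no match, and Car1, Fech, Ank1 and Samd14 had no promoter entry. The letters CCACACCC of the CACC box, known to be bound by the erythroid factor Klf1, were found in 0 of the 27, against 3.68% of all genes. A match is a description of the letters and shows no binding, and its absence says only that these letters are not in this window.

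Haem synthesis genes did not move as 1 block, and the enzymes of single steps differed. Of 8 measured enzyme genes, 5 were higher and 3 lower in MSI2-inducible cells, with a median difference of 0.33. In 3 of them, Alad, Uros and Fech, both MSI2-inducible arrays lay above all controls, as they did in 9.27% of all genes. The first step is made by Alas1 in most cells and by Alas2 in erythroid cells. Alas1 lay at 8.50 and 8.07 in MSI2-inducible arrays, against 8.998, 8.82 and 8.24 in control arrays. The difference was -0.40 (SE 0.29, limma adjusted p 0.922), its arrays overlapped, and its other probe set differed by -0.26. Alas2 lay at 6.38 and 4.79 in MSI2-inducible arrays, against 5.75, 5.73 and 5.36 in control arrays. Its MSI2-inducible arrays stood on opposite sides of all the controls, and the difference was -0.03 (SE 0.46, limma adjusted p 0.997).

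Alad, the enzyme that joins aminolaevulinate molecules in the second step, had the lowest adjusted p of the erythroid genes. It lay at 9.57 and 9.42 in MSI2-inducible arrays, against 8.59, 8.68 and 8.51 in control arrays, and the groups were far apart for their spread. Means were 9.50 ± 0.11 (SD, n = 2) in MSI2-inducible and 8.60 ± 0.09 (SD, n = 3) in control cells, a difference of 0.90 (SE 0.17, 95% interval 0.49 to 1.31, limma adjusted p 0.482). With an array left out the difference stayed between 0.82 and 0.98. A dimmer second probe set of Alad, with means of 5.35 in MSI2-inducible and 5.34 in control cells, differed by 0.0062.

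Uros makes uroporphyrinogen III, the ring from which haem is built. It lay at 8.47 and 7.01 in MSI2-inducible arrays, against 6.55, 6.23 and 5.88 in control arrays. Both MSI2-inducible arrays were above the controls, but replicate 1 lay 1.46 above replicate 2. The difference was 1.52 (SE 0.45, limma adjusted p 0.842), 0.79 without replicate 1 and 2.25 without replicate 2, and the dimmer second probe set differed by 0.55. In human and mouse the gene is known to have a start used in all tissues and one used in erythroid cells, and RefSeq lists both a distal and a proximal start. They are shown because a GATA match stands before the second only, 68 bases from it, and the array values were not assigned to either. Both stretches are on the minus strand of GRCm38.p6, the first at chr7:133709296-133709545 and the second at chr7:133702501-133702750, and capitals mark the match.
Uros first start: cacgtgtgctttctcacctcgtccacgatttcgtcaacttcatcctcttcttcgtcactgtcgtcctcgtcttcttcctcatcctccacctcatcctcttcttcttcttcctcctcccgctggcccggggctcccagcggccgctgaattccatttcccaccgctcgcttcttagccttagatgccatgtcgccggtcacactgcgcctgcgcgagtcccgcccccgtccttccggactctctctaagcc
Uros second start: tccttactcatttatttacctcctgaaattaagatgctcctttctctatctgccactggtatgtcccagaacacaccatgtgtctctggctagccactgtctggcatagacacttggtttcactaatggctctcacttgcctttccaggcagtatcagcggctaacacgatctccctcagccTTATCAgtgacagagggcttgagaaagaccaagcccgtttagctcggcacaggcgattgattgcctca

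The later enzymes remove carboxyl groups, oxidise the ring and insert iron. Urod lay slightly lower, with a difference of -0.19 (SE 0.19), or -0.03 without replicate 1, and its second probe set differed by -0.06. Cpox (0.24) and Ppox (0.41) were higher in the mean through replicate 1. Ppox lay at 8.61 and 7.84 in MSI2-inducible arrays, against 7.84, 7.77 and 7.84 in control arrays, so replicate 2 did not stand above the controls and the difference without replicate 1 was 0.03. Ferrochelatase, Fech, which sets iron into the ring, lay at 9.20 and 8.75 in MSI2-inducible arrays, against 8.56, 8.09 and 8.50 in control arrays. Its arrays did not overlap, and the difference was 0.59 (SE 0.24, limma adjusted p 0.883), or 0.37 without replicate 1. The 3 other probe sets differed by 0.55, 0.67 and 0.81. The one at 0.55 had a control mean of 4.17, under the median probe set, with 3.65 in MSI2-inducible replicate 1 and 5.80 in replicate 2. In the one at 0.67, replicate 2 lay at 7.64, below control replicate 1 at 7.69. In the one at 0.81 the arrays did not overlap.

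**Figure D3:**
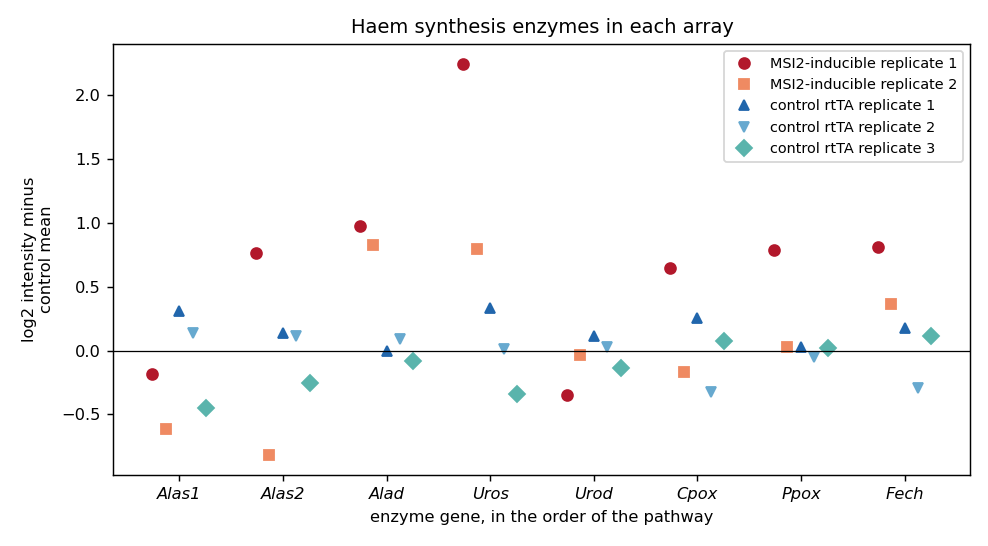
Log2 intensity minus the control mean (y axis) of the 8 measured haem enzyme genes, in the order of the pathway (x axis), with 1 point per array. Alad has both MSI2-inducible arrays (red circle and orange square) well above the 3 tightly placed controls, Uros has them above the controls but far apart, and Alas2 has them on opposite sides.

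The globin genes gave different pictures depending on the probe set. The probe set of Hba-a2 alone lay at 12.13 and 12.27 in MSI2-inducible arrays, against 12.09, 11.96 and 12.25 in control arrays, a difference of 0.10 (SE 0.18, 95% interval -0.34 to 0.54, limma adjusted p 0.976). The arrays overlapped. The probe set of Hba-a1 alone lay at 4.66 and 4.54 in MSI2-inducible arrays, against 4.57, 4.05 and 4.55 in control arrays, below the median probe set in all 5, with a difference of 0.21 (SE 0.22, limma adjusted p 0.946). The 3 probe sets annotated to both alpha-globin genes did not share this pattern. One of these lay at 11.03 and 6.91 in MSI2-inducible arrays, against 7.92, 6.49 and 7.82 in control arrays. The others lay at 9.96 and 6.24, against 6.83, 3.86 and 6.80, and at 7.78 and 4.61, against 5.71, 4.43 and 5.30. In all 3, MSI2-inducible replicate 1 exceeded the highest control by 2.07 to 3.13 and replicate 2 was below it. The probe set of Hba-a2 alone showed no such rise, and whether it follows the Hba-a2 transcript was not tested.

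Beta-globin gave the same order at the top. The probe set shared by 4 adult beta-globin genes, Hbb-bt among them, lay at 12.37 and 8.90 in MSI2-inducible arrays, against 9.84, 9.91 and 10.28 in control arrays. Replicate 1 exceeded the highest control by 2.09, and replicate 2 was the lowest of the 5 arrays. A probe set of Hbb-b2 alone lay at 9.78 and 6.54, against 7.24, 6.09 and 6.99, a difference of 1.38 (SE 0.93, limma adjusted p 0.922). The shared probe sets have no assignment to a single gene and stand outside the 34.

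The alpha-globin genes are near-identical copies, which the bases before their starts make visible. RefSeq sequence of build GRCm38.p6 holds the same run of 247 bases before both starts, at chr11:32283425-32283671 for Hba-a1 and chr11:32296242-32296488 for Hba-a2, both on the plus strand. Capitals mark a GATA match.
Hba-a1 and Hba-a2: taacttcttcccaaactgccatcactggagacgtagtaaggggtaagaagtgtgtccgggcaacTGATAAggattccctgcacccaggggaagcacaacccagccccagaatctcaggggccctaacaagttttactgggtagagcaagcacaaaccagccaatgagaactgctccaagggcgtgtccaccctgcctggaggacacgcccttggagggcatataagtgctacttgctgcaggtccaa

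**Figure D4:**
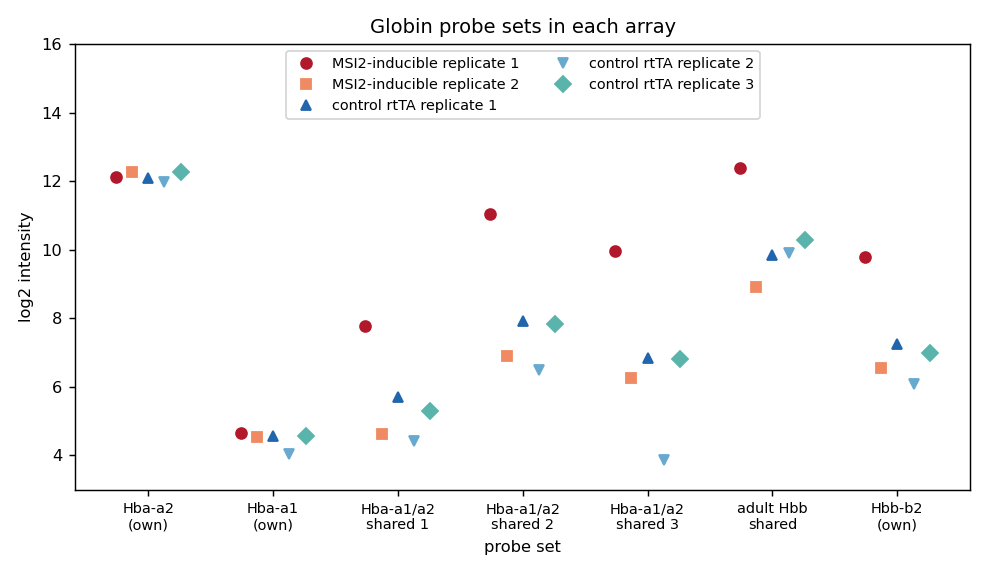
Log2 intensity (y axis) of 7 globin probe sets (x axis), with 1 point per array; probe sets named as own carry 1 gene symbol and those named as shared carry several. The red circle, MSI2-inducible replicate 1, stands above the other 4 arrays in the shared and Hbb-b2 probe sets and among them in the Hba-a2 probe set; heights are to be compared within a probe set only.

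Iron and haem handling genes were higher in the mean, with MSI2-inducible replicate 1 the highest array of each. The transferrin receptor Tfrc, through which erythroid cells take up iron, lay at 10.65 and 9.94 in MSI2-inducible arrays, against 10.01, 9.63 and 10.06 in control arrays. Only replicate 1 was above the controls, and the difference was 0.39 (SE 0.27, limma adjusted p 0.922), or 0.04 without replicate 1. Its other probe sets did not all share that order. In the one that differed by 0.50, MSI2-inducible replicate 1 lay at 8.403, against 8.56 in control replicate 1, the highest array, while in the one that differed by 0.11 MSI2-inducible replicate 1 was highest. Of 3 control probe sets for Tfrc on the array, the 3' set had 7.20 in MSI2-inducible replicate 1, against 7.53 in control replicate 1, and the 5' set 8.58, against 9.01, control replicate 1 being the highest array of both, while MSI2-inducible replicate 1 was highest in the middle set. The mitochondrial iron importer Slc25a37 differed by 0.04 (SE 0.18). Blvrb, a biliverdin reductase of red cells, differed by 0.97 (SE 0.53) and Tspo2, an erythroid membrane protein of the translocator family, by 0.41 (SE 0.37), and without replicate 1 these were 0.22 and -0.21. The control mean of Tspo2, 4.62, was under the median probe set.

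Genes of the membrane and its skeleton held the largest differences and the largest spread. Slc4a1 codes for band 3, the anion exchanger that anchors the skeleton. It lay at 10.29 and 4.91 in MSI2-inducible arrays, against 6.19, 3.72 and 7.06 in control arrays. Replicate 1 was above every control by more than 3 log2 units, and replicate 2 lay among them. The difference was 1.95 (SE 1.71, limma adjusted p 0.933), and it was -0.74 without replicate 1 and 4.63 without replicate 2. Of its other probe sets, one gave the same order of arrays, at 9.87 and 4.10, against 5.38, 3.73 and 6.18, and the other, near the floor, differed by 0.18.

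Epb42, protein 4.2, which links band 3 to ankyrin, lay at 8.63 and 5.28 in MSI2-inducible arrays, against 4.84, 5.28 and 4.73 in control arrays. The difference of 2.01 (SE 0.92, limma adjusted p 0.911) came from replicate 1 and was 0.33 without it, and the control mean of 4.95 was under the median probe set. The dimmer second probe set of Epb42 differed by 0.46, at 4.55 and 3.29, against 3.74, 3.29 and 3.36. Ank1, ankyrin, lay at 7.96 and 6.83, against 6.39, 6.39 and 5.97, so both MSI2-inducible arrays were above the controls. Its difference was 1.14 (SE 0.36, limma adjusted p 0.870), 0.58 without replicate 1 and 1.71 without replicate 2, and its 3 dimmer probe sets differed by 0.25 to 0.46. Add2, an adducin of the spectrin junction, differed by 0.66 (SE 0.39), and its 4 other probe sets by -0.26 to 1.45. The actin-capping protein Tmod1 differed by -0.12 (SE 0.19).

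Among surface proteins and channels, the water channel Aqp1 was higher in both MSI2-inducible arrays. It lay at 9.23 and 8.62 in MSI2-inducible arrays, against 8.04, 7.07 and 7.50 in control arrays, with no overlap. Means were 8.92 ± 0.43 (SD, n = 2) and 7.54 ± 0.49 (SD, n = 3), a difference of 1.39 (SE 0.34, 95% interval 0.55 to 2.23, limma adjusted p 0.679), and with an array left out it stayed between 1.08 and 1.69. Rhd, the Rh blood group protein, lay at 8.67 and 6.48, against 6.34, 6.12 and 6.46. Its arrays did not overlap, but replicate 2 was barely above the highest control, and the difference of 1.27 (SE 0.61, limma adjusted p 0.911) was 0.17 without replicate 1.

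The other surface genes differed less. Ermap, which carries the Scianna blood group in human, differed by 0.66 (SE 0.35, and 0.18 without replicate 1), Icam4, an adhesion protein that is a blood group antigen in human, by 0.10 (SE 0.24), and the claudin Cldn13 by 0.68 (SE 0.58). Cldn13 was -0.24 without replicate 1. Aqp9, a channel for glycerol and water that is not particular to red cells, lay at 7.94 and 7.75 in MSI2-inducible arrays, against 8.58, 8.02 and 8.02 in control arrays. Both arrays were below the controls, the difference was -0.36 (SE 0.24, limma adjusted p 0.922), and a second probe set differed by 0.39.

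The carbonic anhydrases, which turn carbon dioxide into bicarbonate, differed from each other. Car1 lay at 11.47 and 10.52 in MSI2-inducible arrays, against 10.45, 9.22 and 9.59 in control arrays, with no overlap. The difference was 1.24 (SE 0.45, limma adjusted p 0.870), 0.76 without replicate 1, and replicate 2 was close to control replicate 1. Car2 lay between 12.84 and 13.18 in all 5 arrays, a difference of 0.14 (SE 0.17, 95% interval -0.28 to 0.56). Sphk1, which makes sphingosine 1-phosphate, differed by 0.78 (SE 0.41), and by 0.12 without replicate 1. Its control mean of 5.54 was just under the median probe set, and its dimmer second probe set differed by 0.22.

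The regulators and remaining genes had small differences, from -0.24 for Mns1, a structural protein of cilia and of meiosis, to 0.48 for Samd14. Samd14, known in mouse to support Kit signalling in erythroid precursors, lay at 6.96 and 6.98 in MSI2-inducible arrays, against 6.42, 6.45 and 6.60 in control arrays. Its arrays did not overlap, with an SE of 0.17 and a limma adjusted p of 0.870. Hemgn, a nuclear protein of blood progenitors, lay at 10.72 and 10.68, against 10.52, 10.25 and 10.52, a difference of 0.27 (SE 0.18). Trib2, a pseudokinase, ran the other way between the MSI2-inducible arrays in its brightest probe set only. There replicate 1 lay at 5.002 and replicate 2 at 7.01, while controls kept to 5.86 to 5.93. Another Trib2 probe set lay at 5.76 and 5.16 in MSI2-inducible arrays, against 4.26, 4.68 and 5.02 in control arrays, a difference of 0.80. Its control mean of 4.65 was under the median probe set. The dimmest Trib2 probe set differed by -0.39. The coactivator gene Cited4 differed by -0.14 (SE 0.18) near the floor, and its dimmer second probe set by 0.37, in the other direction. Samd14, Hemgn, Trib2, Ppox and Aqp9 were given by array after their values were seen.

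Other genes of the lineage were taken from 7 lists. Of 22 measured red cell membrane and skeleton genes, 14 were higher and 8 lower, with a median difference of 0.07 and 0 past the test. Without overlap, 5 were higher and 1 lower (9.27% and 9.39% of all genes). The Kell antigen gene Kel lay at 7.36 and 5.46 in MSI2-inducible arrays, against 4.69, 3.99 and 4.44 in control arrays. The tetraspanin gene Tspan33 differed by 1.29 (SE 0.58), the Rh-associated glycoprotein gene Rhag by 1.42 (SE 0.55) and the spectrin gene Sptb by 0.70 (SE 0.24), all without overlap; the control means of Kel, Rhag and Sptb were under the median probe set. Of 4 other globin genes with a probe set of their own, 3 were higher and 0 passed, and the embryonic Hbb-bh1 differed by 0.70 (SE 0.21). The control mean of Hbb-bh1, 5.09, was also under the median probe set.

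Of 15 genes for haem transport, cofactors and breakdown, 13 were higher and 2 lower, with a median of 0.17 and 0 past the test. Without overlap, 3 were higher and 1 lower (9.27% and 9.39% of all genes). The largest difference was in the other direction. Hmox1, the haem oxygenase that breaks haem down, lay at 5.57 and 5.63 in MSI2-inducible arrays, against 7.13, 7.28 and 6.51 in control arrays, a difference of -1.38 (SE 0.27, limma adjusted p 0.495). The iron-sulphur cluster protein gene Glrx5, needed for haem synthesis in erythroid cells, differed by 0.65 (SE 0.19). Iron genes numbered 16, with 8 higher, 8 lower, a median of -0.0020 and 0 past the test. Without overlap, 0 were higher and 2 lower (9.27% and 9.39% of all genes). The divalent iron transporter Slc11a2 differed by 0.84 (SE 0.35), and Exoc6, needed for transferrin cycling, by -0.68 (SE 0.25).

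Of 21 transcription factor genes, 12 were higher and 9 lower (median 0.08), and 0 passed. Without overlap, 4 were higher and 4 lower (9.27% and 9.39% of all genes). The erythroid factor Klf1, named after its values were seen, lay at 9.22 and 7.70 in MSI2-inducible arrays, against 7.83, 5.72 and 6.79 in control arrays. Gata1, the central erythroid factor, lay at 6.91 and 6.85, against 7.61, 7.52 and 7.09, so it was lower in both MSI2-inducible arrays while most of the erythroid genes were higher. Sox6, a cofactor of red cell maturation, differed by 1.03 (SE 0.30). Among 15 genes of erythropoietin signalling, 9 were higher and 6 lower (median 0.15, 0 past the test), and the survival gene Bcl2l1 differed by 0.88 (SE 0.28). Among 20 genes of red cell enzymes and late maturation, 12 were higher and 8 lower (median 0.08, 0 past the test). Without overlap, 5 were higher and 2 lower (9.27% and 9.39% of all genes). The 5 higher include Trim10, a ubiquitin ligase of erythroid cells, which differed by 1.73 (SE 0.73) with controls near the floor. Epb41l4a differed by 1.003 (SE 0.33) and the peroxidase gene Prdx2 by 0.32 (SE 0.18), both also higher without overlap. Alox15, the lipoxygenase that degrades organelles in reticulocytes, lay at 5.91 and 4.82, against 7.46, 7.72 and 7.21, a difference of -2.10 (SE 0.36, limma adjusted p 0.401).

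Some markers of other cell types also stood apart in MSI2-inducible replicate 1. Of 12 mature neutrophil markers 9 were measured. The full set of 9 lay above the control mean in MSI2-inducible replicate 1 and 1 of 9 in replicate 2, with medians of 1.99 and -0.95, against 0.33, -0.61 and 0.28 in control replicates 1, 2 and 3. Their summed intensity was 62444 and 11743 in MSI2-inducible arrays, against 14228 to 26635 in control arrays. Of 12 macrophage and monocyte markers 11 were measured, with sums of 2520 and 1311, against 1342 to 1746, with medians of 0.56 and -0.25, against -0.14, -0.18 and 0.17. Of 10 B cell markers 9 were measured, with medians of 0.62 and -0.02, against 0.03, 0.03 and -0.09. Their sums were 1104 and 779, against 405 to 680, and Vpreb1, a gene of B cell precursors, made up a large share of the MSI2-inducible sums, at 9.03 and 8.87 on the log2 scale, against 7.24, 4.60 and 8.36. Stem and multipotent progenitor genes, 11 of 12 measured, ran the other way, with medians of -0.45 and 0.16 in MSI2-inducible replicates 1 and 2, against -0.12, -0.02 and 0.11 in the controls. Of 10 genes that define erythroblasts 6 were measured, all but Rhag among the 34, so their values largely repeat those given above. All 6 lay above the control mean in MSI2-inducible replicate 1 and 4 in replicate 2, with medians of 0.75 and 0.10, against 0.16, -0.31 and 0.16 in control replicates 1, 2 and 3. Their summed intensity, 7466 and 6012, against 4875 to 6156, is mostly that of the Hba-a2 probe set. For megakaryocyte markers the sums were 1871 and 2332, against 2307 to 2910, for T and NK cell markers 862 and 715, against 659 to 1180, and for mast cell, basophil and eosinophil markers 896 and 381, against 305 to 1430. No marker has a true 0 on this scale.

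**Figure D5:**
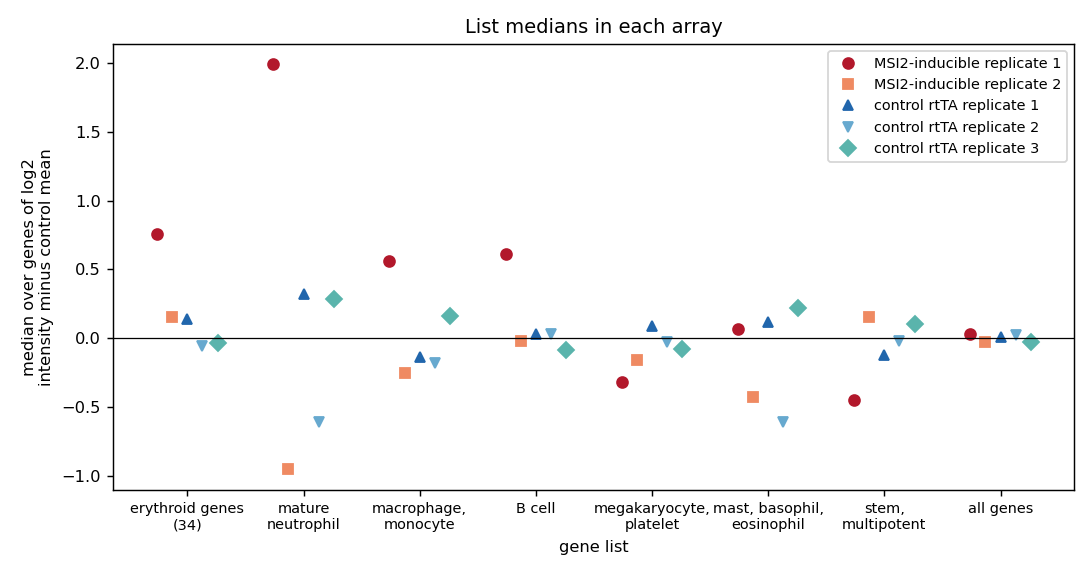
Median over the genes of each list (x axis) of log2 intensity minus the control mean (y axis), with 1 point per array. The erythroid genes lie at 0.75 in MSI2-inducible replicate 1 (red circle), the array in which mature neutrophil markers lie at 1.99 and stem genes at -0.45.

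Control probe sets for RNA quality did not set that array apart. For Gapdh, the log2 signal at the 3' end exceeded that at the 5' end by 2.22 in both MSI2-inducible arrays, against 2.14 to 2.60 in control arrays. The part of other cell types and of RNA quality in the erythroid differences was not tested.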

How the data were processed

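Each array was 1 sample, and groups were taken from the sample titles. The authors deposited intensities per probe set, not on a log scale and normalized across the 5 arrays. The submitters' processing notes name RMA, the affy package and R 2.11.0; how RMA's log values became linear is not stated there. RNA was amplified linearly, per the labels' protocols. Log2 of the intensities was taken with no pseudocount. The platform annotation gave 1 symbol to 34958 of 45101 probe sets, several to 932 and none here to 9211; symbols were updated by Entrez ID (GRCm38.p6 table), and 64 control probe sets were left out. Each gene was read from its brightest probe set. All 18193 genes were fitted with limma 3.58.1 in R 4.3.3 (lmFit, eBayes, group as the only term), with Benjamini-Hochberg adjustment over all genes. The fit was tested on simulated data. Genes given array by array were the globins, those with a difference of at least 1, those without overlap and a difference of at least 0.5, and Tfrc, Alas1, Alas2 and Slc4a1; of other lists, up to 4 genes were eligible, first those without overlap, then those of largest difference. The genes and lists were chosen with earlier results of these data known. An array was counted as highest or lowest only if no other array tied with it. Promoters came from RefSeq (GRCm38.p6), with 27 of the 35 genes matched, and no build is named for the array values. Figures were drawn with matplotlib 3.10.9.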

Additional observations from a re-analysis of the deposited data

How the results depend on the processing

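Genes past limma's test over all genes numbered 3 higher and 1 lower. With log2(intensity + 16) these were 1 and 0, with array weights 1 gene was higher, and lower genes numbered 2 when low values were left out or quantile normalization was repeated and 3 under an adjusted p of 0.10. Leaving out arrays gave 0 to 0 in both directions; a lone MSI2-inducible array was then assumed to vary like the controls. A fit with a replicate block called 0 higher and 0 lower, and nothing in the labels pairs the samples. Deviations of same-numbered arrays from their group means correlated at 0.134 and 0.0990. The deviations of the 2 MSI2-inducible arrays mirror each other by construction, so these values cannot decide whether samples are paired. The single erythroid genes gave 0 calls under the 9 other settings (lowest adjusted p 0.333) and with any of 5 arrays left out (0.225); 8 had an unadjusted p under 0.05. Their median difference, 0.41, ranged from 0.16 to 0.75 over left-out arrays. Genes without overlap, 10 higher and 1 lower, numbered 11 to 23 and 1 to 5 over left-out arrays, where fewer arrays have to separate and the share of all genes that were higher without overlap went up too (9.27% with all arrays, 13.3% to 31.9% with one left out; 31.9% beside the 23), and 0 were lower with the mean of probe sets. The median in MSI2-inducible replicate 1, 0.75, was 0.60 with the mean of probe sets and 0.64 to 0.82 over left-out arrays; that in replicate 2, 0.16, was 0.060 to 0.22. Counts of genes highest in an array ranged over left-out arrays from 5 to 14 for MSI2-inducible replicate 2, 6 to 12 for control replicate 1, 0 to 3 for control replicate 2 and 1 to 3 for control replicate 3; for control replicate 2 it was 1 with the mean of probe sets and without _x_at and _s_at probe sets. Of 303 differences under other settings 5 changed sign: Alas2 to 0.017 with log2(intensity + 16), 0.014 with repeated quantile normalization and 0.0021 with array weights, and with the mean of probe sets Aqp9 to 0.016 and Cited4 to 0.11. Over left-out arrays 14 of 170 changed sign, within ranges of -0.82 to 0.76 for Alas2, -0.29 to 0.0020 for Cited4, -0.24 to 1.61 for Cldn13, -0.17 to 0.65 for Cpox, -0.092 to 0.24 for Icam4, -0.54 to 0.047 for Mns1, -0.078 to 0.16 for Slc25a37, -0.74 to 4.63 for Slc4a1, -0.20 to 0.0048 for Tmod1, -0.88 to 1.13 for Trib2 and -0.21 to 1.03 for Tspo2. The cause was not tested. The alternatives for counts without overlap, and left-out arrays for values by array, were added after seeing the data.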
